A study of Mus musculus with 6 samples.

Results

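The 44 genes described here make, break down, carry or sense sphingolipids, and all 44 were found by symbol among the 23415 rows of the authors' table of liver gene expression. Livers of 3 alkaline sphingomyelinase knockout mice (animals 82, 84 and 85) were compared with livers of 3 wildtype mice (animals 81, 83 and 90), all labelled as strain C57BL/6. Genotype was read from the letters K and W in the sample names, and no age, sex, treatment, allele or breeding detail is given. The labels call the tissue liver while the series' design text speaks of intestine. That text also speaks of pairs of mice, but the sample names do not show which mice were paired. Expression is the authors' 1 value per group, read as FPKM (fragments scaled to transcript length and library size), so no value per mouse and no spread between mice is given.

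Sphingomyelin is a membrane lipid that sphingomyelinases split into ceramide and phosphocholine, and sphingomyelin synthases rebuild it. Ceramide is also made from serine and palmitoyl-CoA in the endoplasmic reticulum. Ceramidases release sphingosine from it, and sphingosine kinases turn sphingosine into sphingosine 1-phosphate (S1P), a signal read by receptors on endothelial and immune cells. Alkaline sphingomyelinase, the product of Enpp7, works in the gut lumen on sphingomyelin from food and bile, and by structure it belongs to the nucleotide pyrophosphatase family and not to the Smpd sphingomyelinases.

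Enpp7, the gene removed in the knockout, was near the floor of the measurement in both groups, at 0.141 FPKM in knockout livers and 0.0541 FPKM in wildtype livers. It lies on chromosome 11 from 118988188 to 118992841 (mm10) and carries the mark NOTEST in the authors' deposited table. Its level therefore gives no check of the genotype labels. Tissue markers were therefore compared. The 13 hepatocyte markers had a median of 1298 FPKM in knockout livers and 1571 FPKM in wildtype livers, against 0.738 and 0.443 FPKM for 21 markers of intestinal epithelium. By these medians the tissue was mainly liver, as labelled. Lct, Sis and Alpi, which define absorptive enterocytes, stayed at or below 0.233 FPKM in both groups. Other genes of the intestinal list were well above this: Apoa4 stood at 86.5 FPKM in knockout livers and 98.6 FPKM in wildtype livers, Fabp2 at 42.9 and 54.7 FPKM, Anpep at 40.1 and 41.6 FPKM, and Tff3 at 48.8 and 23.9 FPKM. Each of them still lay far below both hepatocyte medians. These 7 genes were chosen after their values were seen.

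None of the sphingolipid genes passed the test. Of the 44, the authors tested 37, and 0 had a q (the p-value adjusted over all tested genes) under 0.05 in either direction in the authors' deposited table, where 1.08% of 11515 tested genes did, 0.573% as higher and 0.504% as lower in knockout livers. The smallest q of a member was 0.889 in the authors' deposited table, and at the looser q under 0.1, which 1.42% of tested genes met, the count was still 0. At an unadjusted p under 0.05 there was 1 member, Smpd3, in 37, against 5.29% of all tested genes. The 7 untested members (Smpdl3b, Sptlc3, Sptssb, Acer1, Sphk1, Sgpp2 and S1pr3) stood at or below 0.537 FPKM in both groups.

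Most differences between the groups were small. The log2 ratios of knockout over wildtype ran from -0.26 for Asah2 to 0.63 for S1pr2, and 35 of the 37 were smaller than 0.5 in size (94.6%, against 89.3% of all tested genes). In size their median was 0.12, beside 0.17 over all tested genes. With sign, 23 lay above 0 and 14 below, with a median of 0.04 beside -0.0012 over all tested genes. Scaling both columns to the same sum moves every ratio down by 0.19, so that the median of all tested genes becomes -0.20, that of the members -0.16, and 30 of the 37 lie below 0. Positive ratios under about 0.19 therefore change sign with that scaling, and each ratio is best read against the median of all genes.

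The interval of each ratio shows the range of differences that its value and error allow. It does not show the size needed for a call, which rests on q over all tested genes. The standard error (SE) used here is the ratio divided by the authors' test statistic. It is the error of their model for 3 libraries a group and not an observed spread. Its median was 0.265 over the tested members and 0.279 over all tested genes. For 29 of the 37 members (78.4%, against 73.8% of all tested genes) the 95% interval lay wholly within a 2-fold change either way. The other 8 were Smpd3, Cers4, Cers5, Degs2, S1pr2, S1pr5, Gba2 and Gltp, for which a change of 2-fold in at least 1 direction was not outside the interval. The smallest ratio of any called gene in the table was 0.78 in size, larger than that of every tested member.

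**Figure D1:**
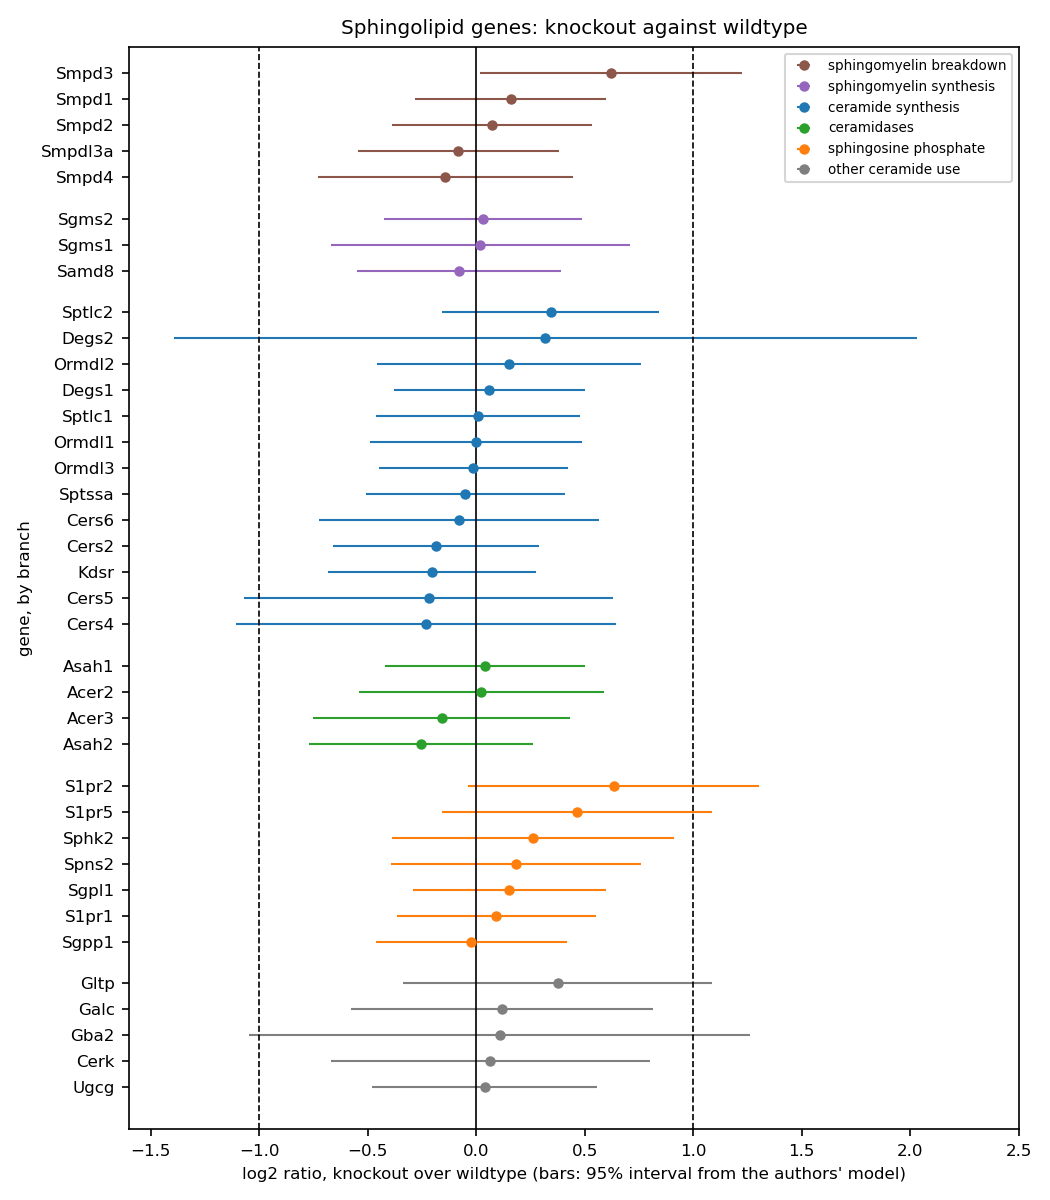
Log2 ratio of knockout over wildtype for the 37 tested sphingolipid genes, grouped by branch, with bars for the 95% interval from the authors' model and dashed lines at a 2-fold change. Only the interval of Smpd3 leaves out 0, and Degs2 has the widest.

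Levels differed far more between genes than between groups. Members spanned from 0 FPKM (Sptlc3, listed at 0 in both groups) to a mean of 155 FPKM (Cers2), and 34 of the 44 had a mean of at least 1 FPKM. The median of the 37 tested members was 5.20 FPKM, beside 6.56 FPKM over all tested genes. Across the tested members, the log2 levels of the groups had a Pearson correlation of 0.993, beside 0.983 across 11456 tested genes with both values above 0. This is a description across genes, which are not independent, and the groups share the gene lengths and the library preparation.

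**Figure D2:**
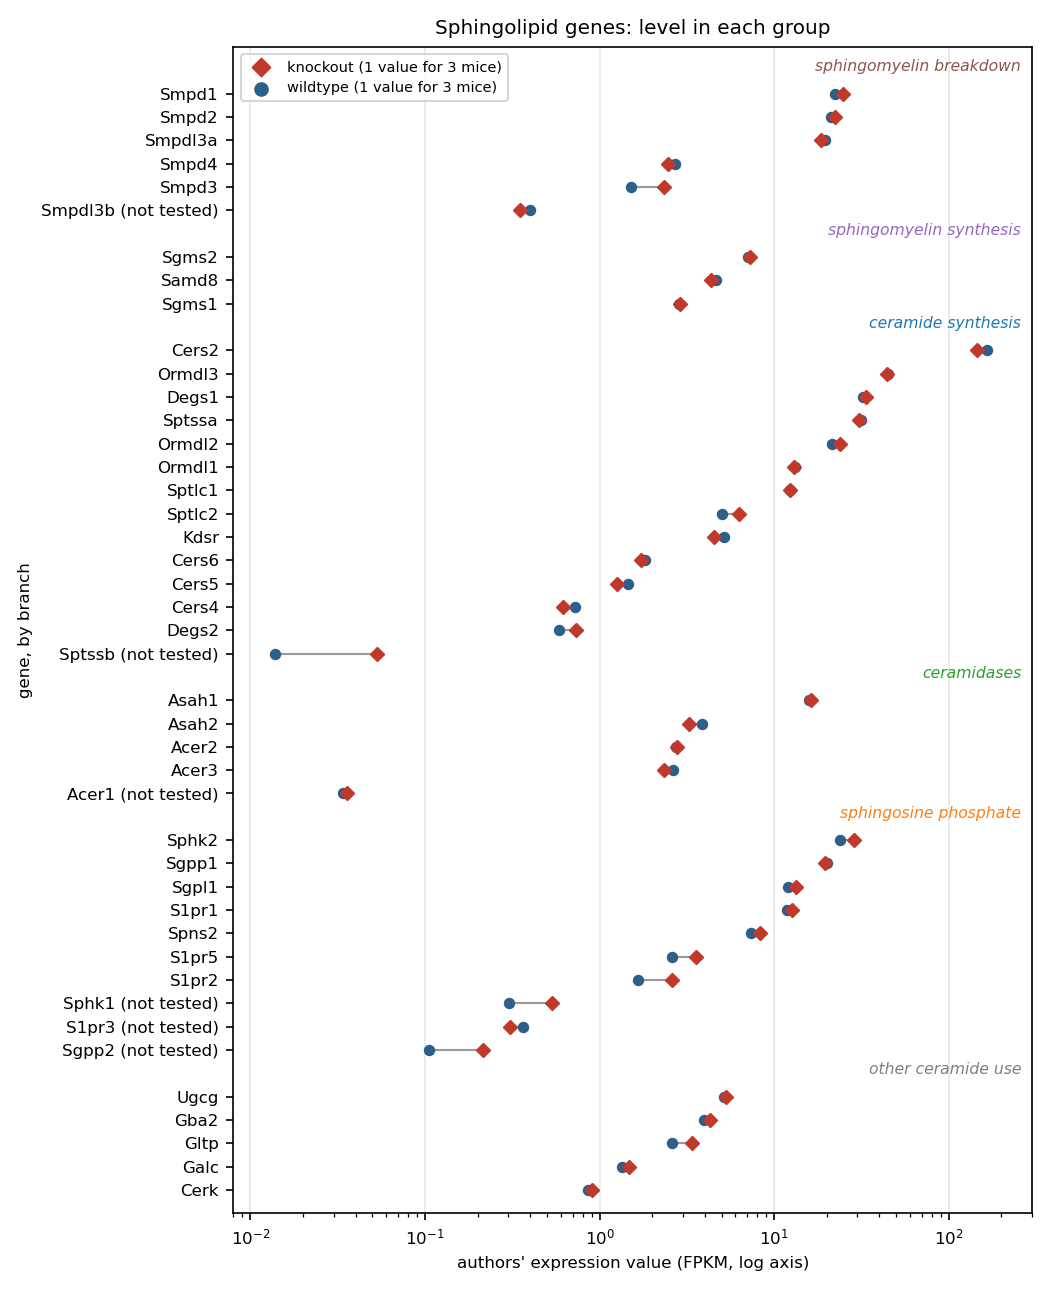
Expression of the sphingolipid genes in knockout livers (diamonds) and the wildtype group (circles) on a log axis in FPKM, by branch, 1 value per group. Cers2 stands highest, and the widest gaps belong to untested genes under 1 FPKM such as Sptssb; Sptlc3 is listed at 0 in both groups and is left out.

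By summed FPKM, ceramide synthesis was the highest branch, with 15 genes at 318 FPKM in knockout livers and 336 FPKM in wildtype livers. Cers2 alone supplied 145 and 165 FPKM of these sums, and the ORMDL regulators 81.3 and 79.4 FPKM. Of the 13 tested genes of the branch 0 passed, 5 ratios lay above 0 and 8 below, and the median was -0.01. The branch starts with serine palmitoyltransferase, whose catalytic core joins SPTLC1 with SPTLC2 or SPTLC3. Sptlc1 stood at 12.4 FPKM in knockout livers and 12.3 FPKM in wildtype livers, a log2 ratio of 0.01 ± 0.24 (SE). Sptlc2 stood at 6.33 and 4.997 FPKM, the largest ratio among the tested genes of the branch at 0.34 ± 0.25 (p = 0.178, q = 1.00 in the authors' deposited table). In both groups Sptlc1 thus exceeded Sptlc2, by 1.957-fold in knockout livers and by 2.47-fold in wildtype livers.

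The activating small subunit of the enzyme came almost wholly from 1 gene. Sptssa was at 30.5 FPKM in knockout livers and 31.6 FPKM in wildtype livers, while Sptssb was at 0.0528 and 0.0139 FPKM and was not tested. The ORMDL proteins hold serine palmitoyltransferase back when ceramide is plentiful. Ormdl3 led them at 44.4 FPKM in knockout livers and 44.8 FPKM in wildtype livers. Ormdl2 followed at 23.9 and 21.5 FPKM, and Ormdl1 at 13.1 FPKM in both. Ormdl1 and Ormdl3 had log2 ratios of -0.0014 ± 0.25 and -0.01 ± 0.22.

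Kdsr, the ketoreductase of the second step, stood at 4.50 FPKM in knockout livers and 5.17 FPKM in wildtype livers. Degs1, the desaturase that finishes ceramide, stood at 33.5 and 32.1 FPKM, a ratio of 0.06 ± 0.22. Degs2, which also makes phytoceramides, held 2.13% of the desaturase FPKM in knockout livers and 1.79% in wildtype livers. Its values were 0.730 and 0.585 FPKM, with the widest interval of the tested members, from -1.39 to 2.03.

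Ceramide synthases attach the acyl chain, and each prefers chains of certain lengths. CERS2 prefers very long chains, whereas CERS5 and CERS6 prefer palmitoyl chains. Cers2 alone held 97.6% of the FPKM of the 4 genes in knockout livers and 97.6% in wildtype livers. Its level was 145 FPKM in knockout livers and 165 FPKM in wildtype livers, which placed it above 94.6% and 95.3% of tested genes. The ratio was -0.19 ± 0.24 (p = 0.441, q = 1.00 in the authors' deposited table), with a 95% interval from -0.66 to 0.29.

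The other synthases were low. Cers6 was at 1.72 FPKM in knockout livers and 1.82 FPKM in wildtype livers, Cers5 at 1.26 and 1.46 FPKM, and Cers4 at 0.619 and 0.727 FPKM. All 4 ceramide synthase ratios lay below 0, between -0.23 and -0.08 as deposited and each smaller than its SE. In FPKM, which allow for transcript length, Cers2 exceeded Cers4 by 235-fold in knockout livers and by 227-fold in wildtype livers.

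Stretches before transcript starts of 3 genes of this branch are shown because these genes stand at the top, near the bottom and at 0 of its levels. Each is the 250 bases before an annotated transcript start in RefSeq on GRCm38.p6, the assembly of mm10, printed on the strand of the gene, with CG dinucleotides in capitals. Cers2 (chr3:95314940-95315189, plus strand) has 24, Cers4 (chr8:4493155-4493404, plus strand) 11 and Sptlc3 (chr2:139493663-139493912, plus strand) 1. The stretches of Cers2 and Cers4 lie after the first base of their RefSeq genes (95314771 and 4492818). That of Sptlc3 ends right before its gene (139493913). A further Cers2 entry, with 5, lies later in the gene and is not shown.
Cers2: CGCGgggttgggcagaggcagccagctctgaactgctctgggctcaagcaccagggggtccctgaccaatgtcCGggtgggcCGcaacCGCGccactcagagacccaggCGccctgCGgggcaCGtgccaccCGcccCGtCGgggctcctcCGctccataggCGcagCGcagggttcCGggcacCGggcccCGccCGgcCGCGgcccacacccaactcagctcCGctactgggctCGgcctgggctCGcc
Cers4: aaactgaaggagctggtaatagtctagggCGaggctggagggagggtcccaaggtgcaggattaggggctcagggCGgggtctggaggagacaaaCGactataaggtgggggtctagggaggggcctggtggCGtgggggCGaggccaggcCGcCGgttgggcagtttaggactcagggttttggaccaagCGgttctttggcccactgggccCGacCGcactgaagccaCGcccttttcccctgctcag
Sptlc3: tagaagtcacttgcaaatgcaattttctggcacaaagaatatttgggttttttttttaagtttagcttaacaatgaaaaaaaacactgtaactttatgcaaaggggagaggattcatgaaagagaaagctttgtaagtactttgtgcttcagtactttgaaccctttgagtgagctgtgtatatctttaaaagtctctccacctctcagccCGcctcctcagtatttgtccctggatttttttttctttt

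The CG count did not order the genes by level. The upstream stretch of Cers6 holds 23 CG at a mean of 1.77 FPKM, and that of Sgpp2, untested at a mean of 0.161 FPKM, holds 24. CG reads the same on both strands, so 1 count covers both. At least 15 CG were found upstream of 24 of the 33 tested members with an entry (72.7%, taking the richest start of each gene) and of 2 of the 7 untested ones, against 59.1% of 8568 tested genes and 29.6% of all 27025 genes with an entry. The minimum of 15 was set for this description and tests nothing. Smpd3, Smpdl3a, Asah1 and S1pr1 had no entry.

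Sphingomyelin breakdown was represented by 6 genes summing to 70.8 FPKM in knockout livers and 67.7 FPKM in wildtype livers. None of its 5 tested genes passed, 3 ratios lay above 0 and 2 below, and the median was 0.07, or -0.12 with both columns scaled to the same sum. Smpd1, the lysosomal acid sphingomyelinase, was the highest at 24.8 FPKM in knockout livers and 22.2 FPKM in wildtype livers. Its ratio was 0.16 ± 0.22 (p = 0.482, q = 1.00 in the authors' deposited table), with a 95% interval from -0.28 to 0.60. Smpd2, a neutral sphingomyelinase of the endoplasmic reticulum and nucleus, stood close behind at 22.4 and 21.3 FPKM. Together these genes supplied most of the FPKM of Smpd1 to Smpd4, with shares of 47.7% and 43.1% in knockout livers and 46.5% and 44.6% in wildtype livers.

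Smpd3 encodes the neutral sphingomyelinase of the plasma membrane and Golgi, known for its part in exosome release. It lies on chromosome 8 from 106252548 to 106337988 (mm10). Its level was 2.34 FPKM in knockout livers and 1.52 FPKM in wildtype livers. The ratio of 0.62 ± 0.31, 1.54-fold, had the smallest p of all members and did not pass (p = 0.0438, q = 0.889 in the authors' deposited table). Under quantile normalization or scaling to the same sum, no member had an unadjusted p under 0.05.

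Smpd4, a neutral sphingomyelinase of the nuclear envelope and endoplasmic reticulum, was at 2.45 FPKM in knockout livers and 2.71 FPKM in wildtype livers. Smpdl3a and Smpdl3b are relatives of acid sphingomyelinase, and SMPDL3A acts on nucleotides. Smpdl3a was at 18.5 and 19.6 FPKM, while Smpdl3b, at 0.352 and 0.397 FPKM, was not tested.

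As deposited, the ratios of the sphingomyelin synthesis genes were at most 0.08 in size, smaller than the largest of every other branch. This order depended on the scaling. With both columns scaled to the same sum, Samd8 had -0.27 and Gltp, the largest as deposited of other ceramide use, 0.18. The 3 sphingomyelin synthesis genes summed to 14.5 FPKM in both groups, and 0 of 3 passed. Sgms2, the plasma membrane synthase, was the highest at 7.25 FPKM in knockout livers and 7.09 FPKM in wildtype livers (ratio 0.03 ± 0.23, p = 0.889, q = 1.00 in the authors' deposited table). Samd8, which makes the analogue ceramide phosphoethanolamine, followed at 4.37 and 4.62 FPKM (-0.08 ± 0.24, p = 0.741, q = 1.00 in the authors' deposited table). Sgms1, the Golgi synthase, was at 2.87 and 2.84 FPKM. The intervals of all 3 lay within a 2-fold change. The FPKM of Smpd1 to Smpd4 exceeded those of the 3 synthase genes by 3.58-fold in knockout livers and by 3.28-fold in wildtype livers.

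The ceramidase genes summed to 24.7 FPKM in knockout livers and 25.1 FPKM in wildtype livers, and 0 of the 4 tested passed. Asah1, the lysosomal acid ceramidase, held 65.9% and 63.1% of these sums at 16.3 and 15.8 FPKM (ratio 0.04 ± 0.24, p = 0.864, q = 1.00 in the authors' deposited table). Asah2, the neutral ceramidase, was at 3.25 FPKM in knockout livers and 3.88 FPKM in wildtype livers. Its ratio of -0.26 ± 0.26 was the lowest of the tested members (p = 0.332, q = 1.00 in the authors' deposited table). Acer2, the alkaline ceramidase of the Golgi, was at 2.78 and 2.73 FPKM, and Acer3, that of the endoplasmic reticulum and Golgi, at 2.35 and 2.63 FPKM. Acer1, known from the epidermis, was untested at 0.0357 and 0.0339 FPKM. Asah2 and Sgms1, which act on either side of ceramide, lie 20 kb apart on chromosome 19.

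The S1P branch held S1pr2, the tested member with the largest ratio. Its 10 genes summed to 89.8 FPKM in knockout livers and 80.1 FPKM in wildtype livers. Of the 7 tested genes 0 passed, and 6 ratios lay above 0 with a median of 0.18, which became -0.01 with both columns scaled to the same sum. Among the enzymes, Sphk2 supplied 98.2% of the sphingosine kinase FPKM in knockout livers and 98.7% in wildtype livers. Its level was 28.6 and 23.8 FPKM (ratio 0.26 ± 0.33, p = 0.429, q = 1.00 in the authors' deposited table). Sphk1, the inducible cytosolic kinase, was untested at 0.537 FPKM in knockout livers and 0.302 FPKM in wildtype livers. It lies 2.45 Mb from Enpp7 on chromosome 11.

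S1P is removed by phosphatases, which return sphingosine, and by a lyase, which destroys it for good. Sgpp1 was at 19.7 FPKM in knockout livers and 19.98 FPKM in wildtype livers, a ratio of -0.02 ± 0.22. Its relative Sgpp2 was untested at 0.216 and 0.105 FPKM. Sgpl1, the lyase, was at 13.4 and 12.03 FPKM, a ratio of 0.15 ± 0.23. Spns2, the exporter of S1P known from endothelium, was at 8.32 and 7.33 FPKM, a ratio of 0.18 ± 0.29.

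S1pr1, the receptor of endothelium and lymphocytes, led the receptors at 12.7 FPKM in knockout livers and 11.9 FPKM in wildtype livers. It supplied 66.3% and 72.1% of the FPKM of the 4 receptor genes. S1pr5, known from natural killer cells, was at 3.57 and 2.59 FPKM (ratio 0.46 ± 0.32). S1pr2, which bile acid conjugates also activate in hepatocytes, was at 2.59 FPKM in knockout livers and 1.67 FPKM in wildtype livers. Its ratio of 0.63 ± 0.34, 1.55-fold, was the largest of the tested members and did not pass (p = 0.0642, q = 1.00 in the authors' deposited table). The 95% interval ran from -0.04 to 1.31. S1pr3, known from stellate cells, was untested at 0.309 and 0.364 FPKM. S1pr2 and S1pr5 lie 266 kb apart on chromosome 9.

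Markers of several cell types that carry S1P receptors were measured beside these values. Over all tested genes, 0.573% rose and 0.504% fell. Of 9 tested neutrophil markers 4 rose (S100a8, S100a9, Ngp and Ltf), and the 11 listed summed to 109 FPKM in knockout livers and 6.32 FPKM in wildtype livers. Most of the knockout sum came from S100a8 and S100a9, at 38.4 and 46.0 FPKM. Ngp and Ltf were near the floor in wildtype livers, at 0.0928 and 0.0158 FPKM. Of 11 tested Kupffer cell and macrophage markers 2 rose, Marco and C1qa, and the sums were 526 and 333 FPKM. Marco had a log2 ratio of 1.24 as deposited, and 1.04 with both columns scaled to the same sum, where its call was lost (q = 0.0717). C1qa had a ratio of 0.79 as deposited, and lost its call with the same sum (0.60, q = 0.253) and under quantile normalization (0.77, q = 0.0580). The 9 sinusoidal endothelium markers summed to 106 and 111 FPKM, the 9 stellate cell markers to 83.3 and 94.7 FPKM and the 7 lymphocyte markers to 3.45 and 4.19 FPKM, with 0 called. Of 5 tested cholangiocyte markers 1 rose, Spp1, at 142 and 62.6 FPKM, and it made up most of the list's sums of 150 and 70.1 FPKM. The median log2 ratio of those 5 was 0.10. None of the listed markers was at 0 in both groups. The part of these cells in the receptor values was not tested, and in bulk liver RNA more cells of a type and more RNA per cell cannot be told apart.

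Ceramide has further uses beyond sphingomyelin and S1P, and 5 members serve them. All 5 were tested, 0 passed, and all 5 ratios lay above 0 with a median of 0.11, which was -0.09 with both columns scaled to the same sum. Ugcg, glucosylceramide synthase, was the highest at 5.27 FPKM in knockout livers and 5.13 FPKM in wildtype livers (0.04 ± 0.27, p = 0.886, q = 1.00 in the authors' deposited table). Gba2, the non-lysosomal glucosylceramidase, was at 4.28 and 3.97 FPKM. Gltp, a cytosolic glycolipid transfer protein, was at 3.38 and 2.61 FPKM, the largest ratio here at 0.38 ± 0.36 (p = 0.302, q = 1.00 in the authors' deposited table). Galc, the lysosomal galactosylceramidase, was at 1.47 and 1.35 FPKM, and Cerk, ceramide kinase, at 0.900 and 0.860 FPKM.

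Some of these values may hold reads of overlapping genes, since the reads were 50 nt long and no source says whether the strand was kept. The share of 50-base words of each member's GENCODE transcripts that also occur, on either strand, in transcripts of another gene was therefore counted. It was highest for Ormdl2, at 60.6%, all of it shared with Dnajc14 on the opposite strand. Dnajc14, a co-chaperone, was at 9.90 FPKM in knockout livers and 9.32 FPKM in wildtype livers. Sphk2 followed at 18.3%, shared with Dbp and Rpl18 on the opposite strand. Dbp, a clock output factor, was at 70.6 and 64.8 FPKM, above Sphk2 in both groups, and Rpl18, a ribosomal protein gene, at 606 and 521 FPKM.

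Smpd2 shared 14.6% with Mical1, which was low at 0.537 and 0.403 FPKM. Acer1 shared 12.1% with several other genes, and Degs2 9.05% with Evl, which was at 2.47 and 1.42 FPKM. For the remaining members the share was at most 8.48%, and it was 2.05% for Cers2 and 4.15% for Smpd3. Between them, 7 members (Sptssa, Cers2, Degs2, Sphk2, Sgpp2, Gba2 and Ormdl2) carry a locus in the authors' table that spans another gene's row as well. The locus of Degs2 is 291652 bases long, while the RefSeq gene is 15515. No source used here says how such reads were assigned.

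Genes around the pathway were taken from 5 lists, chosen with earlier results of these data known. The called genes there were Aldh3a2, Elovl6 and Elovl3. Of 7 tested genes among the remaining sphingolipid enzymes and receptors 1 fell, Aldh3a2, beside 0.504% of all tested genes. Aldh3a2 is the fatty aldehyde dehydrogenase that oxidises the long-chain aldehyde released by S1P lyase and other fatty aldehydes. It fell from 94.1 FPKM in wildtype livers to 51.5 FPKM in knockout livers, a log2 ratio of -0.87 ± 0.23 (q = 0.0172 in the authors' deposited table). Sgpl1, the step before it, had the ratio of 0.15 given above. The difference between these genes was not tested. Cers1 was listed at 0 in both groups, Cers3 was at 0.00686 FPKM in knockout livers and listed at 0 in wildtype livers, and S1pr4 was at 0.438 and 0.284 FPKM, all of them untested.

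In the acyl chain supply list 1 of 15 tested genes rose and 1 fell, beside 0.573% and 0.504% of all tested genes. Elovl6, which elongates palmitate, fell to 14.0 FPKM in knockout livers from 39.6 FPKM (-1.50 ± 0.23, q = 2.35e-08 in the authors' deposited table). Elovl3, an elongase of very long saturated chains, rose to 57.3 FPKM from 32.8 FPKM (0.80 ± 0.23, q = 0.0484 in the authors' deposited table), and lost its call under both other scalings. Elovl1, which supplies the very long chains used by CERS2, was at 30.2 FPKM in knockout livers and 25.8 FPKM in wildtype livers, and Elovl2 at 93.1 and 112 FPKM. Both were chosen after their values were seen. Dbi, the acyl-CoA binding protein, was the most abundant gene of the list at 1694 and 1422 FPKM.

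No gene of the other 3 lists passed, beside 1.08% of all tested genes. In glycosphingolipid synthesis, with 5 of 11 genes tested, St3gal5, which makes ganglioside GM3, had both the highest level and the smallest p, at 67.6 FPKM in knockout livers and 95.9 FPKM in wildtype livers (-0.50 ± 0.23, q = 0.750 in the authors' deposited table). All 15 lysosomal genes were tested, with a median ratio of 0.03. Their highest was Ctsd, a protease that processes saposin precursors, at 257 and 232 FPKM, and their smallest p was that of Npc2, a cholesterol carrier, at 30.6 and 25.6 FPKM (0.26 ± 0.22, q = 1.00 in the authors' deposited table).

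Among 9 tested transfer proteins and carriers 8 ratios lay below 0, with a median of -0.16 and 0 called. Over all 11515 tested genes 5744 lay below 0, with a median of -0.0012. Plekha8, which moves glucosylceramide between Golgi membranes, was at 3.94 FPKM in knockout livers and 6.03 FPKM in wildtype livers (-0.61 ± 0.24, q = 0.379 in the authors' deposited table). Its q became 0.0431 with both columns scaled to the same sum, a setting that moves every log2 ratio down by 0.19. Under quantile normalization the q of Plekha8 was 0.396. Apom, the S1P carrier of high-density lipoprotein, was the most abundant of them at 493 and 379 FPKM (0.38 ± 0.23, q = 1.00 in the authors' deposited table).

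**Figure D3:**
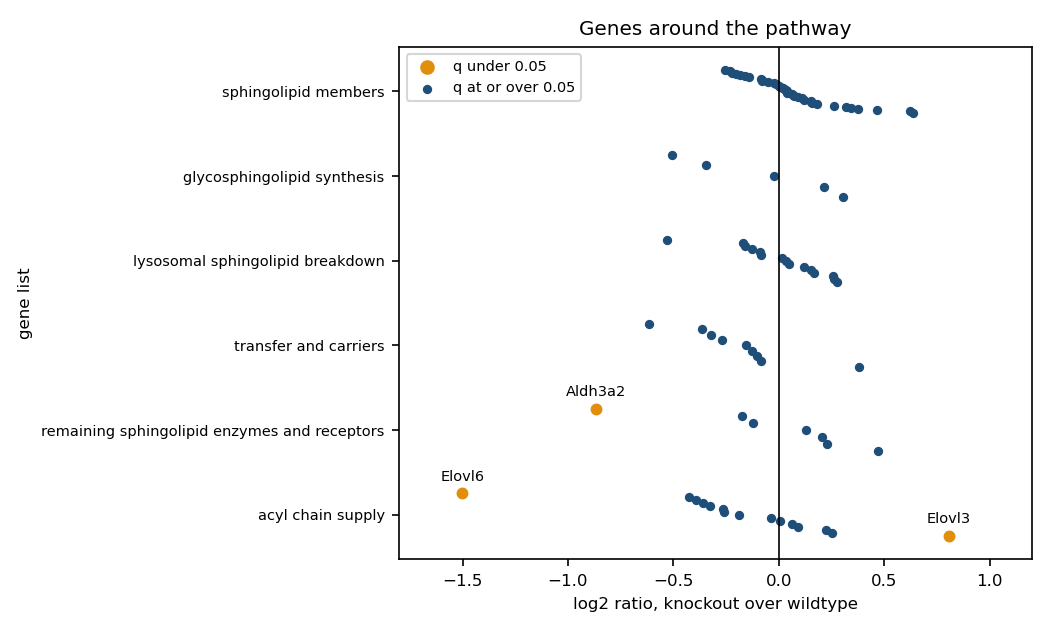
Log2 ratio of knockout over wildtype for each tested gene of the sphingolipid members and of 5 lists around the pathway, 1 point per gene, in order of ratio within a list. Aldh3a2 and Elovl6 at -0.87 and -1.50 and Elovl3 at 0.80 are the called genes, and no member is called.

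**Figure D4:**
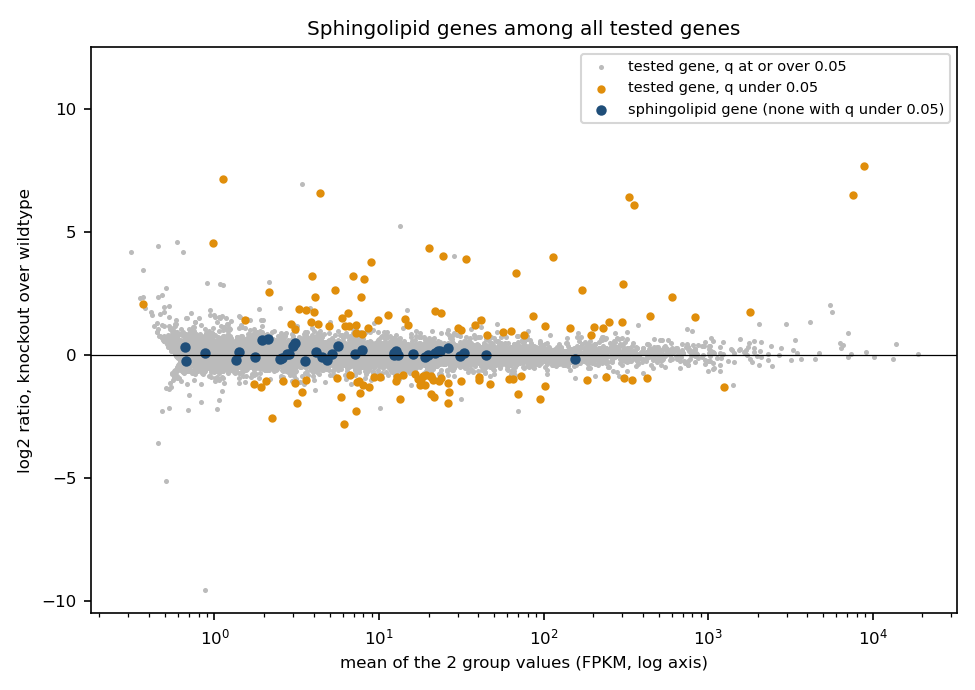
Log2 ratio of knockout over wildtype against the mean FPKM (log axis) for the 11456 tested genes with both values above 0. The 37 sphingolipid genes lie between -0.26 and 0.63, inside the band of uncalled genes, while the called genes lie at 0.78 or more in size.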

How the data were processed

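RNA-seq of 6 mouse livers was analysed from 2 tables that the authors deposited, 1 of all genes and 1 of 95 differential genes, which holds none of the members. Per the labels' protocols, 1 ug of total RNA entered an Illumina TruSeq library preparation, and the design text gives single-end reads of 50 nt. The submitters' processing notes name Bowtie2 and mm10, without versions; the quantification program is not given in the sources used. The deposited expression values carry no unit in the headers and were read as the authors' FPKM from the Cuffdiff-like layout. Per the file headers, the deposited log2 ratio has wildtype in the numerator, and ratios were recomputed as knockout over wildtype. The depth is unknown, and no counting interval can be given.

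The authors' deposited q-value equals Benjamini-Hochberg adjustment of their p-value over the 11515 tested genes within 1.99e-06. A gene is called, and said to have risen or fallen, when that q is under 0.05. An interval is the normal 95% interval from ratio and SE. The p-values measure only the spread the authors' model assigned, and no observed spread between mice is given. No source says how the mice were bred.

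The members and lists were chosen with earlier results of these data known. Full statistics are given for members at an unadjusted p under 0.05 and for the highest level and largest ratio in each branch. From each list the called genes are named (at most 3), otherwise the gene of smallest p, and the gene of highest level; other genes were named after their values were seen. Coordinates are the table's with 1 added to each start. All 44 symbols were matched in RefSeq (GRCm38.p6), and overlaps were counted in GENCODE vM21 transcripts. Alternatives were other scalings, pseudocounts, a filter on low values and another q. The rules for calls and intervals were run on ratios simulated with the SEs used here (Python 3.11.15, scipy 1.17.1). That run checks neither those SEs nor the authors' own test.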

Additional observations from a re-analysis of the deposited data

How the results depend on the processing

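No paired analysis was possible because the tables hold 1 value per group, and for the same reason no mouse could be left out. The design text speaks of pairs of mice, but the animal numbers do not show which mice would form a pair. The count of called members stayed at 0 in both directions under scaling to the same sum, quantile normalization, centring on genes of at least 1 FPKM, a q under 0.1 and a filter at a mean of 1 FPKM. With both columns scaled to the same sum, the median log2 ratio changed sign for the members (-0.16), sphingomyelin breakdown (-0.12), sphingomyelin synthesis (-0.18), S1P (-0.012) and other ceramide use (-0.087). The log2 ratio of summed FPKM changed sign there too for sphingomyelin breakdown (from 0.06 to -0.13), S1P (from 0.17 to -0.029) and other ceramide use (from 0.14 to -0.059). So did the ratios of Smpd1 (-0.0365), Sgms2 (-0.16), Asah1 (-0.15), Ugcg (-0.16) and Ctsd (-0.044), since that setting subtracts 0.19 from every log2 ratio. Elovl3 lost its call there (0.61, q = 0.247) and under quantile normalization (0.79, q = 0.0580), and Plekha8 gained one (-0.81, q = 0.0431) with the same sum. Pseudocounts of 1 and 0.5, which cannot turn the sign of a single ratio, moved each branch median by less than the median SE of its genes. Scaling to the same sum moved the calls over all genes from 66 higher and 58 lower to 49 higher and 140 lower. Without values per mouse, the spread between mice and differences smaller than about the size of the intervals cannot be assessed.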
